A study of Drosophila melanogaster with 15 samples.

Results

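Joint transcription units that hold several protein-coding genes were examined in the authors' annotation of the Drosophila melanogaster genome. A unit was a member when at least 2 of its gene symbols counted as coding, that is, were not CR plus a number, held no colon and did not begin with mir- or pre-mod(mdg4). This rule gave 666 of 15991 units (4.16%), with 1513 of the 13816 coding symbols in the annotation (10.95%). The other 478 joint units of the annotation held fewer than 2 coding symbols, and 12303 units held exactly 1. The series is an mNET-seq study, which sequences RNA held by engaged RNA polymerase, of embryos at stage 15. Its 15 samples were 4 of female embryos with control RNAi, 4 of female embryos with UAS-mof RNAi, 3 of male control and 4 of male UAS-mof RNAi embryos. Maternal mof was depleted in the MOF groups, and no source used here gives the RNAi driver or the control construct. The table used holds positions and names and no measured value of any sample, so no group was compared and the depth of each sample is unknown. Male control replicate 1 and the coverage of the libraries were not analysed here, and nothing in the labels says whether replicates came from separate collections.

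As background, genes of a strand can share DNA in several ways. Dicistronic genes lie on a common RNA that carries several reading frames. A nested gene lies within the span of a longer gene, often in an intron, and usually has a promoter of its own. Neighbours in tandem can overlap where the end of the upstream gene runs past the start of the next. A nascent read of the shared stretch cannot be assigned to either gene from its strand and position alone.

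The label of the units was checked against RefSeq gene types. Of the 1513 symbols, 1506 (99.54%) were located in the RefSeq gene table of the same assembly, and 1495 of these were protein-coding. The 11 exceptions were 6 matched to long non-coding RNA records, among them bxd, noe and Uhg7, then 4 pseudogenes, among them LysC and Ir47b, and 1 gene segment, pre-lola-G. The symbol let-7, of a microRNA gene, was also among the 11, as it does not begin with mir-. At least 2 protein-coding genes stood in 654 units (98.2%). All located genes but CG17841 lay inside their unit, and in 661 units a located coding gene began at the first base. Units of 2 coding symbols made up 559 of the 666 (83.9%), units of 3 made up 76, and the 5 fullest held 6, 7, 11, 13 and 16. A non-coding gene was joined as well in 86 units (12.9%), as a CR gene in 48, a microRNA in 20, a tRNA in 10 and a snoRNA or scaRNA in 9. The strands were even, with 335 units on plus and 331 on minus.

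The coding genes of a unit were classed by their RefSeq spans, with starts or ends taken as shared when within 10 bp. Of 659 units in which every coding gene was located, 215 (32.6%, 95% exact binomial interval 29.1 to 36.3) were of the nested class, in which every pair of coding genes was nested. With 82 mixed units and 1 unit not classed, 298 units held at least 1 nested pair. In 138 (20.9%, 17.9 to 24.2) the genes had the same start and the same end. The ends of tandem genes overlapped in 129 (19.6%, 16.6 to 22.8). The genes shared only a start in 60 (9.10%) and only an end in 18 (2.73%). In 95 units (14.4%) of 3 or more coding genes the pairs differed in class, and these are named mixed. In 4 units (0.607%) no coding genes overlapped at all. The intervals are given as a scale only, since the units are a full listing of an annotation and neighbours are not independent.

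**Figure D1:**
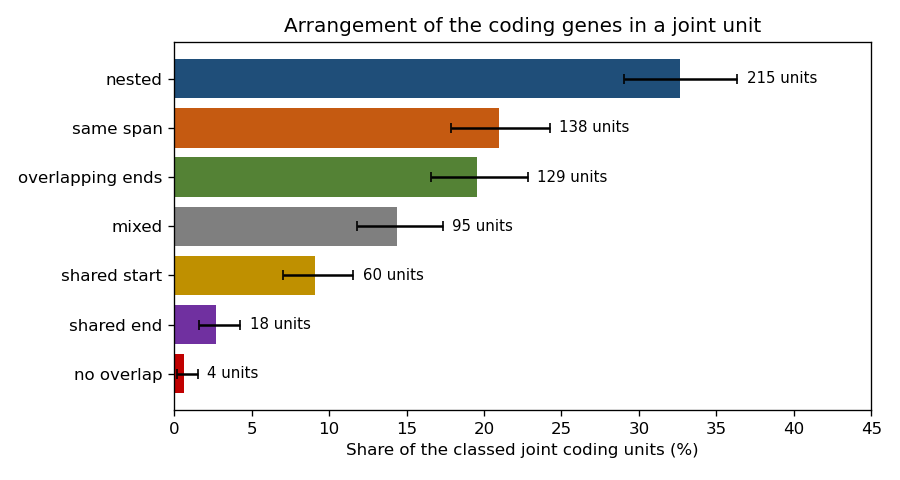
Share of the 659 classed joint coding units by arrangement of their coding genes, in percent, with 95% exact binomial intervals and the number of units. Nested genes (215 units) and genes of the same span (138) lead, and 4 units hold no overlapping coding genes.

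The overlaps of coding genes alone linked 655 of the 659 units (99.39%) into an unbroken chain. In the remaining 4 a long non-coding gene of the unit closed the gap. Myc, the growth-promoting transcription factor gene on X, ended 18539 bp into a unit of 149629 bp that also held CG10801, CG10802, CG10803 and CG13021. The first of these began 87433 bp inside, and CR44999 spanned the gap. The unit that holds rb, an adaptor complex gene for pigment granules, and the transcription factor gene Usf also held CG11436, CG11444 and CG12684, with CR32773 over the gaps (X, 223710 bp). CG10962 and CG12662 shared a unit with CR43836 (X, 76084 bp). fit, a gene with female-biased expression, and CG34148 shared a unit with CR45046 (3R, 6585 bp). Of the 4 units, 3 lay on X.

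Genes of the same span formed the shortest class. The median unit was 2735.5 bp long (binomial interval of the median 2243 to 3353), and 105 of 138 (76.1%) measured under 5 kb. Starts and ends were equal to the base in 137 of the 138. These units held 2 genes in 131 cases, 3 in 5 and 4 in 2, and 136 held no other gene. The shortest was CG43645 with CG43221 on 2L (609 bp), followed by CG42371 with CG15386 (744 bp). The longest were sky with CG43739 (47597 bp), CG45093 with CG30497 (45619 bp) and beat-IIIa with CG34106 (42095 bp). On X the shortest joined ND-MNLL, a subunit gene of respiratory complex I, with CG45089 in 746 bp and 8 transcripts. The shortest members on the other arms were CG30100 with CG42372 on 2R (817 bp), CG17327 with CG44194 on 3R (851 bp) and CG32388 with CG43439 on 3L (1114 bp), all of the same span.

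Several of these pairs belong to genes long described as sharing a transcript. stnA and stnB, the stoned genes of synaptic vesicle recycling, both covered the 23927 bp between 22980722 and 23004648 of X, on minus, with 8 transcripts. Adh, the alcohol dehydrogenase gene, and its relative Adhr both covered the 3351 bp between 14615552 and 14618902 of 2L, on plus, with 8 transcripts. The reading frames of tarsal-less, tal-1A, tal-2A, tal-3A and tal-AA, which encode short peptides, shared 1540 bp on 3R (13813109 to 13814648). As many transcripts were listed there as genes, 4. Whether an RNA shared by several genes stands once per gene in these counts was not checked. Gr64b and Gr64c, receptors of the sugar receptor cluster, shared 3428 bp on 3L, and Gr64d and Gr64e in the next unit shared an end with starts 79 bp apart. Gr64a and Gr64f at the flanks of the cluster had units of their own. Snapin, a synaptic vesicle gene, shared 1251 bp with CG9960.

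In 3 further pairs of the same list the genes shared a start only. ChAT, the acetylcholine synthesis gene, spanned the whole unit of 26844 bp on 3R (18705501 to 18732344). VAChT, which encodes the vesicular transporter of acetylcholine, spanned its first 13416 bp. eIF2gamma, a translation initiation factor gene, spanned 5615 bp on 3R, and Su(var)3-9, the gene of a histone H3 lysine 9 methyltransferase, its first 3595 bp. mei-218 and mei-217, genes of meiotic recombination, spanned 7006 and 6413 bp from a common start on X. The list of described dicistronic or overlapping genes was drawn up from general knowledge, with earlier results of these data known. It is not equally certain for each gene. Of its 31 genes in the annotation, 19 (61.3%, interval 42.19 to 78.15) stood in 9 joint coding units. The share over all coding symbols was 10.95%, and the difference was not tested. The other 12 were Mocs1, Cdc23, CG31687, CheB42a, Cenp-C, Gr64a, Gr64f, dUTPase, Rpp30, TpnC4, Arf79F and Sec61gamma.

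The next pairs of the same span were picked after their values were seen. Ada2a, a subunit gene of histone acetyltransferase complexes, shared 2645 bp on 3R with Rpb4, which encodes a subunit of RNA polymerase II. The unit of this pair had 6 transcripts. HDAC3, a histone deacetylase gene, shared 1791 bp with CG45100, and the DNA damage checkpoint gene Rad1 shared 1617 bp with Sws1. Gr10a and Or10a, a gustatory and an odorant receptor gene, shared 3956 bp on X. Sry-alpha, which acts in cellularisation of the early embryo, shared 3353 bp with the zinc-finger gene Sry-beta. By symbol, genes of like name (a common beginning of at least 2 characters and at most 3 further ones in each) stood together in 34 units. Of these, 12 were of the same span, 11 mixed, 5 overlapping at the ends, 4 sharing a start, 1 sharing an end and 1 not classed. They include lmgA with lmgB, KP78a with KP78b, SclA with SclB, ppk11 with ppk16, and primo-1 with primo-2.

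**Figure D2:**
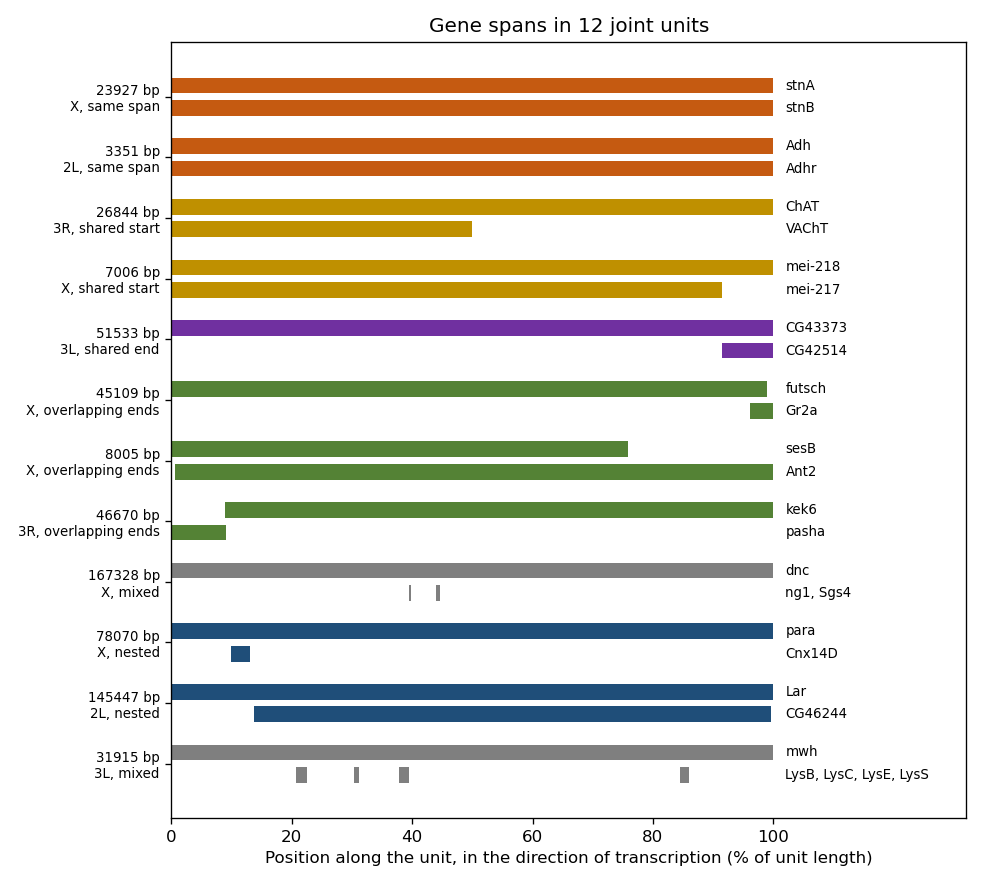
Gene spans in 12 joint units, drawn to scale along each unit from its start (0%) to its end (100%) in the direction of transcription, with the unit length, arm and arrangement at the left. stnA and stnB cover the same 23927 bp, VAChT covers the first 13416 bp of ChAT, and ng1 and Sgs4 are short blocks inside the 167328 bp of dnc.

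Units with a shared start had a median of 6922.5 bp. In the 78 pairs of this kind, counted over all units, the shorter gene reached a median of 57.6% of the longer. The range ran from 1.86% for CG43106 in the unit of lov, a BTB-domain gene (1001 of 53848 bp), to 97.9%. The longest such units were that of lov, the unit of Usp12-46 and CG7029 (43130 bp) and the unit of Nhe2, a sodium/proton exchanger gene, with CG46307 (29688 bp). The shortest were Xport-A with Xport-B, chaperone genes for photoreceptor proteins (1093 bp), and Kaz1-ORFA with Kaz1-ORFB (1434 bp). Of these, Kaz1-ORFA is not a protein-coding gene in RefSeq. vas, the germ line helicase gene, and solo, a gene of sister chromatid cohesion, shared a start on 2L over 12656 and 10478 bp. This pair was picked after its values were seen.

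Units with a shared end were few. lola, a transcription factor gene with many isoforms, gave the longest (61398 bp, 31 transcripts), where its partner is the gene segment pre-lola-G and not a protein-coding gene in RefSeq. In the next, CG42514 began 47134 bp inside CG43373 (51533 bp) and ended with it. Irk1, a potassium channel gene, and CG46310 shared an end in a unit of 17326 bp. MED9, a Mediator subunit gene, began 28 bp after CG42518 in the shortest of these units (1154 bp), and CG43326 began 137 bp after CG43325 in the next (1587 bp). Hsp22, a small heat shock gene, began 209 bp after CG4456, and the pair ended together (2243 bp).

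Nested genes lay in long hosts. There were 430 nested pairs over all units, with 425 inner genes in 302 host genes, and no gene was both host and inner. The median host measured 32792.5 bp (quartiles 14753.8 and 64043.5) and the median inner gene 1094 bp (quartiles 677 and 1856). Inner genes under 2 kb made up 331 of the 430 pairs (77.0%), and in 6 pairs the inner gene measured over 10 kb. The inner start lay a median of 16131.5 bp after the host's start, and the inner end a median of 17701 bp before the host's end. For position, each host was cut into 3 equal parts. The inner gene began in the early part in 160 pairs (37.2%), in the middle part in 186 (43.3%) and in the last in 84 (19.5%). As an inner gene must end before its host does, starts near the end of the host are limited by definition.

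RefSeq listed a single transcript for 329 of the 425 inner genes (77.4%) and for 34 of the 302 hosts (11.3%). The median was 1 transcript per inner gene and 3.5 per host, and the most was 60, for the sodium channel gene para. Its inner gene Cnx14D, a calnexin gene, began 7681 bp inside the 78070 bp of para. That unit also had the most transcripts of all members in the authors' listing (61), though a unit of a single coding gene reached 75.

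**Figure D3:**
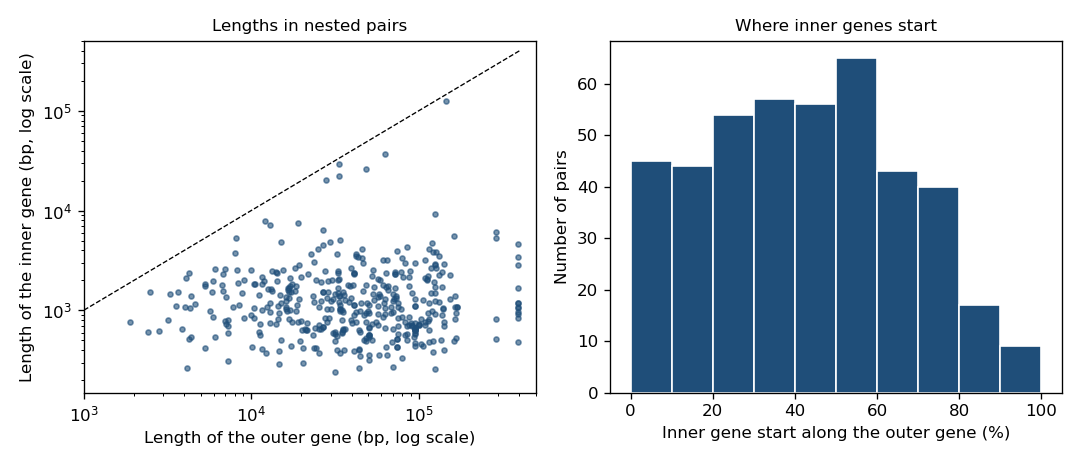
Nested pairs (n = 430). Left, inner gene length against outer gene length in bp on log axes, with equality as a dashed line. Right, start of the inner gene along the outer gene in bins of 10%. Most inner genes stay near 1 kb while outer genes reach 394149 bp, and the fullest bin, 50 to 60%, holds 65 pairs.

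The longest units of a single nested pair were those of mbl, SKIP and Lar. mbl, a splicing regulator gene, held CG43272 (497 bp) in 162828 bp. SKIP held Gld2, a cytoplasmic poly(A) polymerase gene of 5592 bp, which began 77994 bp inside its 162297 bp. Lar, a receptor tyrosine phosphatase gene (145447 bp), was unlike the others. Its inner gene CG46244 spanned 124993 bp, or 85.9% of it, the longest inner gene of all. The shortest nested units were CG33108 with LSm3, an RNA-binding spliceosome gene (1886 bp), and CG14111 with SNCF (2424 bp).

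Hosts with several inner genes numbered 67, against 235 with 1. SLO2, a potassium channel gene on 2R, held 15 coding symbols in 94802 bp, among them Ir47a and the pseudogene Ir47b. kirre, a cell adhesion gene of myoblast fusion on X, held 12. Sytbeta, a synaptotagmin gene on 3L, held 10 in 50283 bp, and among these was ind, the homeobox gene that patterns the neuroectoderm, which began 21053 bp inside (1126 bp long). CG1677 held 6, including the autophagy gene Atg5 and unc-119. CG42784 on 2L spanned a unit of 6 coding symbols and 84997 bp, with the Toll-related receptor gene Tehao 20191 bp inside. The longest unit on 3L was that of Con, a cell adhesion gene, with ATPsynCF6L, CG32232 and CG17030 inside its 142276 bp. In 77 of the 95 mixed units (81.1%) a single gene spanned all others, and in 18 none did. The shortest mixed units were CG42634 with CG42635 and CG31740 (1760 bp), and Z600, an early embryonic cell cycle gene, with gdl and gdl-ORF39 (1987 bp).

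Some hosts held small groups of related genes. mwh, a planar polarity gene on 3L (31915 bp), contained LysB, LysE and LysS, lysozyme genes, and the pseudogene LysC, which began 6585, 12041, 26961 and 9699 bp inside it. Of the 8 lysozyme symbols in the annotation, 4 stood in that unit. CG32052 (21668 bp) contained Ilp1 and Ilp2, insulin-like peptide genes, which began 11374 and 12652 bp inside it. dnc, the cyclic AMP phosphodiesterase gene on X (167328 bp, 3176440 to 3343767), contained the glue protein genes ng1 and Sgs4, which began 65972 and 73649 bp inside it. The units of dnc and of Ilp1 were picked after their values were seen.

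Overlapping ends were mostly short. Over 160 such pairs the median overlap was 101 bp (quartiles 39.75 and 291.8). It was at most 100 bp in 80 pairs and over 1000 bp in 20. The shortest overlap was 2 bp, between ND-15 and CG3436, and it was 3 bp between Cdc37, an Hsp90 co-chaperone gene, and CG12020. CG10340 and CG12783 also overlapped by 3 bp. Next came CG12917 with Or46a (4 bp) and roh with CG30414 (5 bp). pasha, a microRNA processing gene, overlapped the start of kek6 by 82 bp in a unit of 46670 bp. janA overlapped janB by 107 bp in a unit of 1550 bp, and CG14933 and CG42486 formed the shortest unit of the class (1236 bp). In the longest unit, 145744 bp on X, CG3740 (892 bp) ran 383 bp into Mur2B. The next was that of GEFmeso, into which CG42697 ran 133 bp (2R, 58612 bp).

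Some of the longest overlaps joined genes whose starts lay close together. orb2, an RNA-binding protein gene of long-term memory, and CG43783 began 191 bp apart and overlapped by 17173 bp. sesB and Ant2, the ADP/ATP translocase genes of mitochondria, began 51 bp apart on X and overlapped by 6015 bp in a unit of 8005 bp. Mipp2, a phosphatase gene, and raptor, a TORC1 subunit gene, overlapped by 7493 bp, and Kdm4B, a histone demethylase gene, and CG17724 by 13534 bp. inaF-A and inaF-B overlapped by 6381 bp. At the other extreme Gr2a began 43361 bp into the unit of futsch, a microtubule-binding gene of neurons, and shared its last 1257 bp.

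The median length of members was 10128 bp (binomial interval 8045 to 11776), against 2161 bp (2116 to 2207) for the 12303 units with 1 coding symbol. Units over 50 kb numbered 107 (16.1%), against 207 (1.68%). Among classes of at least 18 units, the medians ran from 2735.5 bp for the same span to 42941 bp for mixed units. Overlapping ends had 4615 bp and nested units 26016 bp. The 4 units with no overlap of coding genes had a median of 112856.5 bp. Members took up 17.7% of the summed length of all units (17.5 of 98.7 Mb).

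**Figure D4:**
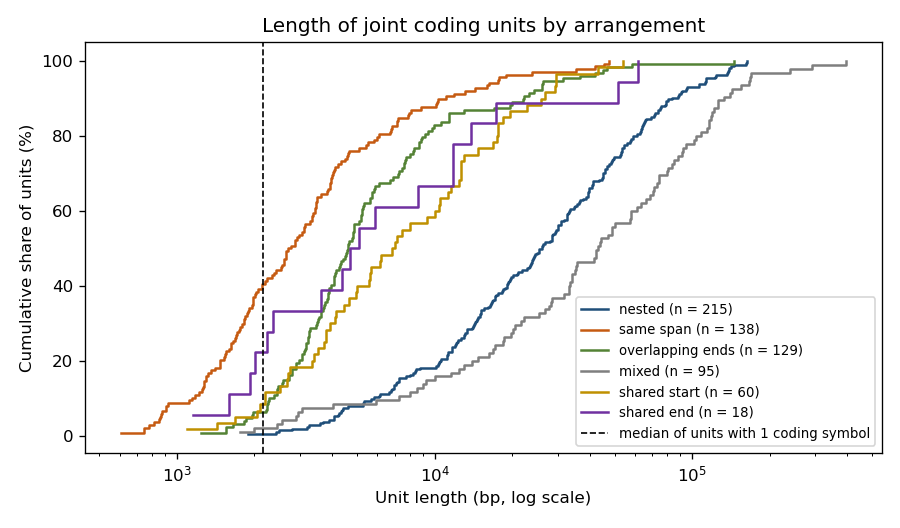
Cumulative share of units by length (log scale, bp) for each arrangement of coding genes with at least 18 units, and the median of units with 1 coding symbol (2161 bp) as a dashed line. Units of the same span lie to the left and nested and mixed units to the right.

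Starts inside a unit were counted from RefSeq. Of the 1506 located genes, 880 (58.4%) began at the first base of the unit, and 547 (36.3%, 33.9 to 38.8) began over 1000 bp inside. Over 5000 bp inside stood 365, and over 50 kb inside 87. In 199 units (29.9%) all coding genes began within 10 bp of the unit start. In 399 units (59.9%) at least 1 gene began over 1000 bp inside. That share of genes was 45.1% in nested, 37.6% in overlapping and 64.7% in mixed units. It was 0% of 285 genes of the same span and of 121 genes with a shared start, as their class requires. The farthest start was that of CG45603, 230937 bp into the unit of Ten-a, a teneurin gene on X. CG3603, CG17959, CG14423 and CG14422 in the unit of kirre followed, at 207650, 206710, 205019 and 203002 bp. The starts just past 1000 bp were those of CG31924 (1005 bp), l(3)72Dp (1013 bp, in the unit of Hsc20), CG31740 (1018 bp), CG32834 (1041 bp) and CG31648 (1052 bp).

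The authors' annotation listed a mean of 2.72 transcripts per coding symbol (SD 2.13 over 666 units, median 2), against a mean of 2.09 (SD 1.98, median 1) in the 11889 units of a single coding gene. The file lists transcripts by unit, so they could not be assigned to a gene, and those of joined non-coding genes are counted too. No member unit listed fewer transcripts than coding symbols. Whether an RNA shared by several genes is listed once for each was not checked, and the means compared here depend on it. As many transcripts as genes were listed in 90 units (13.5%). After the unit of para, most transcripts stood in the units of SLO2 (37), Svil, which encodes an actin-binding supervillin (36), lola (31) and CAP, an actin adaptor gene joined to CG12910 (26). The unit of prage, CG32806 and Adar, an RNA-editing enzyme gene on X, also had 26. Per coding symbol the unit of para led with 30.5, followed by lola with 15.5, CAP with 13, and Svil and mtd with 12 each.

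A start on the opposite strand lay at most 500 bp upstream of 185 members (27.8%, 24.4 to 31.3), against 26.6% (25.8 to 27.4) of units with 1 coding symbol. Within the classes this share was 38.0% (29.6 to 46.9) for overlapping ends, 33.3% (25.5 to 41.9) for the same span, 20.5% (15.3 to 26.5) for nested and 15.8% (9.12 to 24.7) for mixed units. Overlap with any unit on the opposite strand was found for 58.1% of members and 39.1% of units with 1 coding symbol. It was 71.6% for mixed units, 65.1% for nested units and 45.7% for the same span. The members were also longer, with a median of 10128 bp against 2161 bp, and these shares were not matched by length. None of these differences was tested, since units of an annotation are not replicates of a condition.

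Members were found on X and on the 4 large autosomal arms. They made up 4.63% of units on X (111 of 2399, interval 3.82 to 5.55), 3.72% on 2L (118), 4.81% on 2R (156), 4.20% on 3L (131) and 3.94% on 3R (150). The small chromosome 4 had 0 of 109 units, which allows a share of up to 2.75%, and Y had 0 of 112, which allows up to 2.68% (3 counts of the total). By the exact binomial interval used for the other arms, the upper bounds were higher, 3.33% and 3.24%. Both overlap the interval of 2L (3.09 to 4.44). Over the units that held a coding symbol, 80 on chromosome 4 and 24 on Y, the limits of 3 counts were 3.75% and 12.5%. The share on all autosomes was 4.13% (3.80 to 4.48), within the interval of X. By genes, 12.2% of coding symbols on X and 10.7% on the autosomes stood in such units.

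The members on X and on the autosomes were also set side by side by length and class, with no test. The median length was 19079 bp on X (12720 to 29402) and 8251 bp on the autosomes (6839 to 10472), and lengths over 50 kb were found for 32 of 111 (28.8%) and 75 of 555 (13.5%). Genes of the same span made up 14.4% of members on X (8.47 to 22.4) and 22.0% on the autosomes (18.6 to 25.7). Units of the nested class made up 36.0% (27.1 to 45.7) and 31.5% (27.7 to 35.6). Within each class that had at least 6 units on X, the X median was the higher: 34137 against 24576 bp for nested, 5749 against 4334 bp for overlapping ends, 12709 against 6221 bp for a shared start, 4091.5 against 2650.5 bp for the same span, and 119759 against 34660 bp for mixed units. The intervals of these medians overlapped except for mixed units (66378 to 167328 on X, 25392 to 48640 on the autosomes; 17 and 78 units). Of located genes on X, 117 of 265 (44.2%) began over 1000 bp inside their unit, and on the autosomes 430 of 1241 (34.6%).

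**Figure D5:**
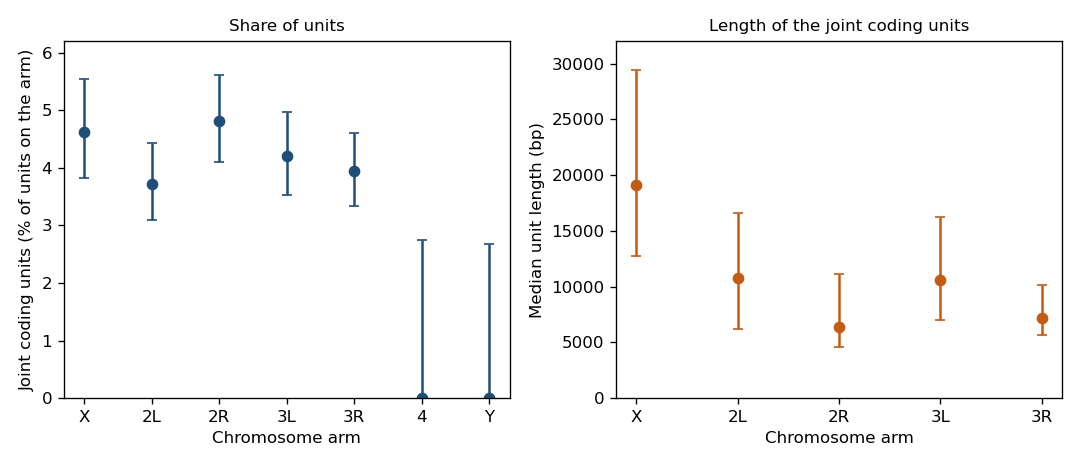
Left, joint coding units as a percentage of all units on each chromosome arm, and right, their median length in bp on the arms that have any, both with 95% binomial intervals where there are members. The shares on X and the large arms lie between 3.72 and 4.81%, and the median length on X (19079 bp) is the highest. Chromosome 4 and Y are at 0 with bars up to the limit of 3 counts (2.75 and 2.68%). Their exact binomial upper bounds, not drawn, are higher, at 3.33 and 3.24%.

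Of a list of genes of transcription, dosage compensation and sex determination, 1 of 31 stood in a joint coding unit (3.23%, interval 0.0816 to 16.7). The share over all coding symbols was 10.95%, within that interval, and the difference was not tested. The gene was Trl, which encodes the GAGA factor. It ended with CG42507, which began 3882 bp inside the unit, and overlapped CG33260 at the unit's start by 530 bp. Sxl, msl-2 and tra2 shared a unit only with small RNA genes, and mof, roX1 and roX2 stood alone. None of these 6 genes therefore shared a unit with any other coding symbol. roX1 and roX2 are non-coding RNA genes, which the symbol rule counts as coding.

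Gene families were counted beside the 10.95% of all coding symbols. Gustatory receptor genes gave 6 of 60, which were the 4 of the Gr64 cluster, Gr2a and Gr10a. Odorant receptor genes gave 5 of 60. Or71a began 16277 bp inside Plp, a centrosome gene, and Or1a 35420 bp inside CG3777. Or23a overlapped Prosbeta4R2, Or46a overlapped CG12917, and Or10a shared the span of Gr10a. Ionotropic receptor genes gave 4 of 66. Ir47a and Ir47b lay in SLO2, Ir62a began 2775 bp inside Iml1, and Ir75d shared an end with CG14077. Odorant-binding protein genes gave 5 of 51. Obp50b and Obp50c shared a span of 1821 bp, and Obp57d shared 1750 bp with the cuticle gene Cpr57A. Obp73a overlapped Nc73EF, and Obp85a began 57020 bp inside CG45263. Pickpocket channel genes gave 3 of 29, with ppk11 and ppk16 of the same span and ppk27 51258 bp inside CG32264.

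Among genes of basic metabolism, complex I genes gave 5 of 40. ND-51L1 began 2476 bp inside Smurf, a ubiquitin ligase gene, and ND-51L2 11039 bp inside Trpm, a cation channel gene. ND-MWFE overlapped Nrk, and ND-15 and ND-MNLL are described above. Ribosomal protein genes gave 4 of 92. RpS27A shared a start with Ip259, RpS28-like overlapped CG3769, RpL7-like shared an end with CG34164, and RpL23A shared an end with the snoRNA host gene Uhg7. Mitochondrial ribosomal protein genes gave 3 of 73, as mRpL13 shared a start with CG10602, mRpL53 a span with CG33155, and mRpS14 overlapped CG32533. Cytochrome P450 genes gave 4 of 86. Cyp6a2 began 17450 bp inside Epac, Cyp4g1 1391 bp inside the unit of CG32816, Cyp6u1 overlapped CG30157, and Cyp4aa1 held COX6AL. Heat shock genes gave 2 of 25, Hsp22 and Hsc20.

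Cuticle protein genes gave 4 of 122, namely Cpr57A, Cpr64Ad within CG43367, TwdlT in the unit of the neuropeptide receptor gene RYa-R, and Twdlalpha, which overlapped CG32568. Tetraspanin genes gave 5 of 34. Tsp42Eb began 6172 bp inside Tsp42Ea, Tsp42Ej overlapped Tsp42Ek, and Tsp66A shared a span with CG42660 and CG42661. Serine protease, seminal fluid and immune peptide genes gave 1 of 21 (Try29F), 1 of 46 (Sfp87B) and 1 of 28 (IM18). None were found of 24 Osiris, 35 glutathione S-transferase, 17 UDP-glycosyltransferase, 10 tubulin and 11 Enhancer of split genes. No list was tested against the rest.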

How the data were processed

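Per the labels, mNET-seq libraries came from 6000 dounced embryos each, collected at 25 °C. Per the submitters' processing notes the build is dm6 and the tools include cutadapt 2.8, STAR 2.7.4a, SAMtools 1.20 and DESeq2, with no role stated. The deposited annotation was exported by rtracklayer 1.48.0, per the file headers. No source used here gives its release or how the authors joined genes. The positions deposited are bases of dm6, and 0 columns of per-sample values were present.

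RefSeq gene spans of the assembly Release 6 plus ISO1 MT, which dm6 also holds, were used. Of the member symbols 1391 were found by symbol, 86 by locus tag, 26 by synonym and 3 by FlyBase gene number, always within their chromosome, and 7 were not located (d, let-7-C, Glycogenin, CG43189, goddard, prominin-like and Mocs2). That table has no strand, so the unit's strand was used. Starts and ends were called shared within 10 bp, and an overlap was at least 1 bp. Intervals (95%) are exact binomial (Clopper-Pearson), and those of medians come from binomial ranks. They count units as independent, and a limit for 0 found is 3 counts of the total. Python 3.11.15, SciPy 1.17.1 and NumPy 2.4.6 were used. The classing was tested on simulated units of 2 genes, so the mixed class and the matching of genes were not covered. No test between groups was made.

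Members and lists were chosen with earlier results of these data known. The text names the 3 longest and 2 shortest units per arrangement, the 5 with most coding symbols, the longest and shortest per arm, every gene of the dicistronic list, members of family lists, the extremes of start distance, overlap and transcripts, and a few units said to be picked later. Proteins and promoters were not analysed here. Alternatives changed the tolerance, the rule for coding genes, the units that enter, the denominator and the distance inside.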

Additional observations from a re-analysis of the deposited data

How the results depend on the processing

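Of 45 alternative values for shares, medians and means, 34 stayed within the interval of the main value and 11 moved out of it. Among units of exactly 2 coding symbols, 38.8% were nested and 23.3% had overlapping ends, since the mixed class cannot arise there, and their median length was 7482 bp. Without units that hold a non-coding gene the median was 7610.5 bp. As a share of units with at least 1 coding symbol, members made up 4.92% on 2L, 5.88% on 2R, 5.11% on 3L and 4.64% on 3R, with fewer units in the denominator. Starts over 100 bp inside made up 40.6% of genes and starts over 5000 bp inside 24.2%. CG or CR numbers of 42000 or above made up 22.8% of located member genes. Tolerances of 0 and 100 bp moved no share of an arrangement out of its interval. With RefSeq gene types 655 units of the whole annotation had at least 2 protein-coding genes, and with current symbols alone 574, against 666; both counts are within 1.5 times and have no interval.

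No paired analysis was possible because the annotation holds no value of any sample and no test was made. The planned promoter motif and protein comparisons were not run, as no sequences were used here. Spans are those of gene models, so no value shows which starts are used in these embryos. RefSeq gives no strand in the table used, and the authors' joining rule is unknown.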

Other observations

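The CG numbers of the joined genes, or CR numbers where a located gene had one, were counted as well. This count was not planned. FlyBase gives protein-coding genes a CG number, and higher numbers were in general given in later rounds of annotation. Of the 1506 located member genes, 737 (48.9%, 95% exact binomial interval 46.4 to 51.5) had a number of 30000 or above. Among coding symbols of all other units that had a CG or CR number, it was 2472 of 12291 (20.1%, 19.4 to 20.8). Their gene types were not checked. With 42000 as the bound, chosen after seeing the data, the shares were 22.8% and 6.35%. The same-span class had the highest share among classes of over 100 genes, 63.9% (182 of 285), and 115 of its 138 units (83.3%) held at least 1 such gene. Overlapping ends had 31.8% (82 of 258). Inner genes and hosts of nested pairs had nearly the same share, 48.9% and 50.7%. None of these shares was tested.

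Of the 1513 member symbols, 883 (58.4%) were a CG number alone, against 49.0% of the symbols in units with 1 coding symbol, a difference that was not tested. In 212 of the 666 units every coding symbol was of this kind, and 158 units joined at least 2 genes with given names.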
